A study of Saccharomyces cerevisiae with 6 samples.

Results

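The COS genes of budding yeast are a family of related genes that lie next to the ends of chromosomes. They were found here by symbol: every probe set whose annotated gene is COS followed only by a number was taken. That rule found 9 of the 5449 genes measured, and 8 of the 9 belong to the family: COS2, COS4, COS6, COS7, COS8, COS9, COS10 and COS12. The other is COS111, a gene named for resistance to the drug ciclopirox, which is not related to the family and is described apart. The gene table used here lists 11 COS family genes, and 3 of them, COS1, COS3 and COS5, had no probe set of their own. The symbols chose the members, but the family itself was chosen by its log2 differences between the groups on these same arrays. Those differences are therefore given as a description, with no test of their own.

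Cos proteins are membrane proteins of the endosome. In yeast they are known to carry ubiquitin and to help other plasma membrane proteins enter the multivesicular body (MVB), whose vesicles are formed by the ESCRT complexes and are then broken down in the vacuole. Genes close to telomeres can be silenced by the Sir proteins, and COS genes are known to respond to the level of NAD+ through the deacetylase Sir2.

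The study asked how cells respond to overproduction of a protein that serves no purpose in them. All 6 arrays came from Saccharomyces cerevisiae carrying an SSE1 deletion, which removes an Hsp110 chaperone, so no value here stands for cells with SSE1. The empty-plasmid group and the yEVenus group had 3 arrays each; the latter carried the yEVenus multi-copy plasmid, which encodes a yellow fluorescent protein. Each array was made from a separate colony grown in medium without leucine to exponential phase. The values are log2 expression levels from RMA, a method that makes the distributions of the arrays alike, so each difference is relative to the bulk of transcripts. Each difference below is yEVenus plasmid minus empty plasmid. In a bulk RNA sample, fewer cells with a transcript and less of it per cell cannot be told apart.

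The comparison has a broad background. In limma's moderated test on all genes (Benjamini-Hochberg adjusted p under 0.05), 70.4% of genes were called, 29.3% higher and 41% lower with yEVenus. For 74.9% of genes the arrays of one plasmid lay wholly apart from those of the other, 31.5% upward and 43.4% downward. Across genes, correlations ran from 0.996 to 0.998 within groups and from 0.966 to 0.978 between them. The deleted SSE1 lay at 3.14 ± 0.116 on empty-plasmid arrays and 3.17 ± 0.071 on yEVenus arrays (SD, n = 3 each), within the range of 2.63 to 4.32 of 17 tag control probe sets that have no yeast target. On 7 of 7 control genes with probe sets at both ends, the gap between the 3' and the 5' probe set was larger on every yEVenus array, averaging 1.83 ± 0.029 in the first group and 2.48 ± 0.067 in the second (n = 3 each, SD over arrays). Across genes, which are not independent replicates, the difference had a Spearman rho of -0.46 with coding length. The COS genes span only 1125 to 1224 nt in coding length, and their values with the length trend removed are given below. Of 13 stationary phase markers 10 rose and 0 fell (median 1.04), and of 7 a-specific mating genes 5 rose and 1 fell (median 0.71). The alpha-specific genes numbered 4, of which 3 rose and 1 fell (median 0.28). With the length trend removed, 8 stationary phase markers rose and 1 fell, and 5 a-specific genes rose and 0 fell. Of the alpha-specific genes 2 then rose and 1 fell, beside 31.4% and 33.5% of all genes. The 3 medians were then 0.75, 0.55 and 0.07. The alpha-specific MF(ALPHA)1 rose from 3.32 to 3.98, within the range of the tag controls. The part of these shifts in the COS values was not tested.

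Of the 8 family members 1 overlapped, 6 were higher on every yEVenus array and 1 lower, beside 31.5% and 43.4% of all genes. In the fit over all genes 5 passed upward and 1 downward, which is 62.5% and 12.5%, beside 29.3% and 41% of all genes. Since the family was picked with this contrast in view, nothing is read from these shares. The median difference was 0.41 over the 8 members and -0.07 over all genes. The members thus spread widely among themselves, from -0.51 for COS7 to 1.05 for COS12.

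**Figure D1:**
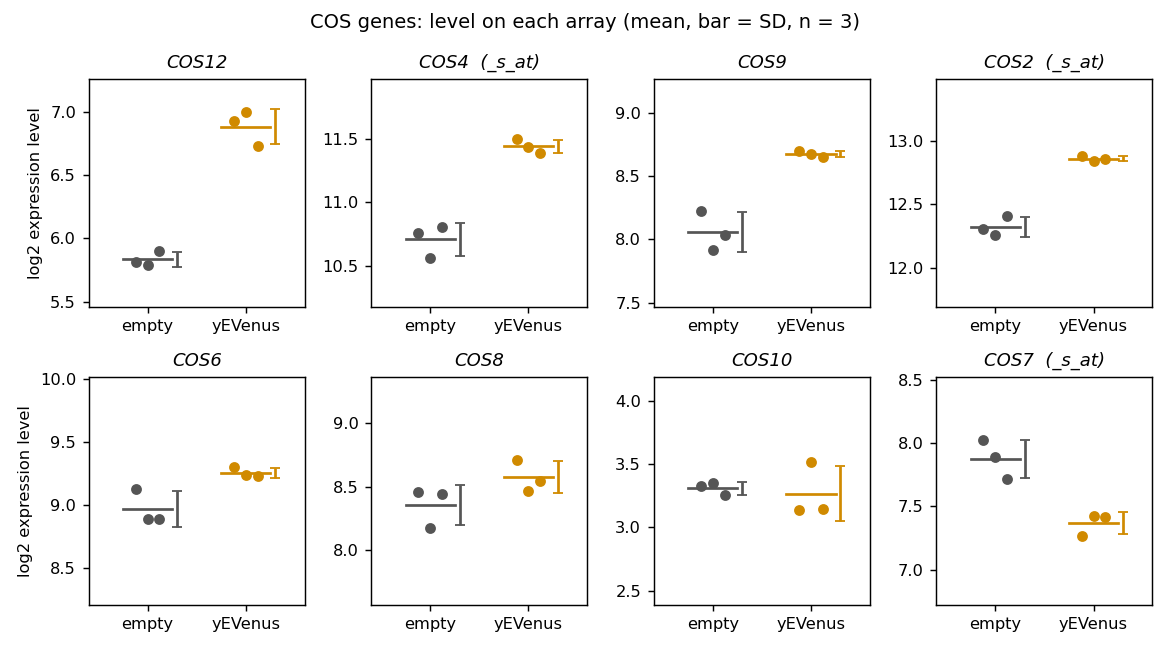
Log2 expression level of each COS gene on the 3 empty-plasmid and 3 yEVenus arrays (points), with the group mean (line) and SD (bar); every panel spans the same range of log2 units but is centred on its own gene. COS12 shows the widest step upward, COS7 steps downward, COS8 barely separates and COS10 overlaps.

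COS12 (YGL263W) is the first annotated gene at the left end of chromosome VII. Its log2 levels were 5.82, 5.79 and 5.90 with the empty plasmid and 6.92, 6.99 and 6.73 with yEVenus. All yEVenus arrays lay above all empty-plasmid arrays, with 0.82 between the nearest of them. The log2 difference was 1.05 ± 0.0764 (SE), or 2.06-fold, and 97.2% of all genes had a lower one. COS12 was also dim, brighter than 9.71% of the genes on the array, although all 6 of its values lay above every tag control.

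COS4 (YFL062W) is the sixth annotated gene from the left end of chromosome VI, and its probe set ends in _s_at, the mark of probes that can read several near-identical copies. It measured 10.76, 10.56 and 10.81 with the empty plasmid and 11.50, 11.43 and 11.39 with yEVenus. The groups stood 0.59 apart at their nearest arrays. The log2 difference was 0.73 ± 0.0726 (SE), or 1.66-fold.

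COS9 (YKL219W), on the left arm of chromosome XI, is the fifth annotated gene from the end and at 1224 nt has the longest coding length of the 8. Its levels were 8.23, 7.92 and 8.04 with the empty plasmid and 8.70, 8.68 and 8.65 with yEVenus. The yEVenus arrays were closely spaced and all above the empty-plasmid arrays, which were wider apart (SD 0.0234 against 0.156). The log2 difference was 0.62 ± 0.0787 (SE), or 1.53-fold.

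COS2 (YBR302C) is the last annotated gene on the right arm of chromosome II and is read by an _s_at probe set. It was bright on every array, at 12.30, 12.26 and 12.41 with the empty plasmid and 12.88, 12.84 and 12.86 with yEVenus. The groups did not overlap, and the difference was 0.54 ± 0.055 (SE), or 1.45-fold. Its level was above that of 95.3% of genes, which for a probe set of this kind may be the sum of several copies. Chromosome II as a whole went the other way: its other genes had a median difference of -0.32, and 60.5% of its genes fell. Relative to that median COS2 stood at 0.86, second to COS12 at 1.13 among the members set against their own chromosomes. That rank takes the whole signal as coming from chromosome II, while the probe set may also read copies elsewhere. Without the subtraction COS2 came after COS12, COS4 and COS9.

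COS6 (YGR295C), next to last at the right end of chromosome VII, had smaller values. Its levels were 9.13, 8.89 and 8.89 with the empty plasmid and 9.30, 9.24 and 9.23 with yEVenus. The nearest arrays of the groups were 0.099 apart, less than the SD of 0.139 within the empty-plasmid group. The difference was 0.29 ± 0.0742 (SE), or 1.22-fold, and with a minimum change of 1.2-fold required it no longer passed. COS6 and COS12 lie at opposite ends of the same chromosome, and their differences were 0.29 and 1.05.

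COS8 (YHL048W), annotated gene number 4 from the left end of chromosome VIII, measured 8.46, 8.18 and 8.44 with the empty plasmid and 8.71, 8.47 and 8.55 with yEVenus. The groups touched: only 0.0095 lay between the highest empty-plasmid array and the lowest yEVenus array. The log2 difference of 0.22 had a 95% interval from -0.0018 to 0.43, so the data allow anything from no change to a 1.35-fold higher level. COS8 did not pass in the fit over all genes, and it did pass under other scalings.

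COS10 (YNR075W), number 4 from the right end of chromosome XIV, was at the floor of the array. Its 6 values, 3.32, 3.35 and 3.25 with the empty plasmid and 3.14, 3.52 and 3.14 with yEVenus, all lay within the range of the tag controls and near the deleted SSE1. The difference of -0.04 ± 0.102 (SE) changed sign with median centring and with the length trend removed. No level of COS10 was detectable above background, so a fall in it could not have been told from background. No yEVenus array showed a rise of COS10 out of the range of the tag controls.

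COS7 (YDL248W) is the first annotated gene at the left end of chromosome IV and the third member with an _s_at probe set. It went from 8.02, 7.89 and 7.72 with the empty plasmid to 7.27, 7.42 and 7.41 with yEVenus. All yEVenus arrays lay below all empty-plasmid arrays, 0.29 apart at the nearest. The log2 difference was -0.51 ± 0.085 (SE), and 12.5% of genes had a lower one. COS7 and COS12 hold the same place on their chromosomes, first from the left end, and their log2 differences were 1.55 apart.

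COS111 (YBR203W), far from the ends of chromosome II, measured 7.60, 7.44 and 7.56 with the empty plasmid and 7.35, 7.43 and 7.44 with yEVenus. Its difference of -0.13 ± 0.0584 (SE) did not pass in the fit over all genes. It was less negative than the median of -0.32 of the other genes of its chromosome, and after subtraction of that median it was 0.19 and passed (limma, adjusted p = 0.019). Without empty-plasmid replicate 2 it passed in the other direction, at -0.17 (limma, adjusted p = 0.0348). The subtracted median came from the same contrast and was treated as fixed, so its own error is not in the p of 0.019. The direction of COS111 thus depended on the setting, and nothing is read from either call.

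**Figure D2:**
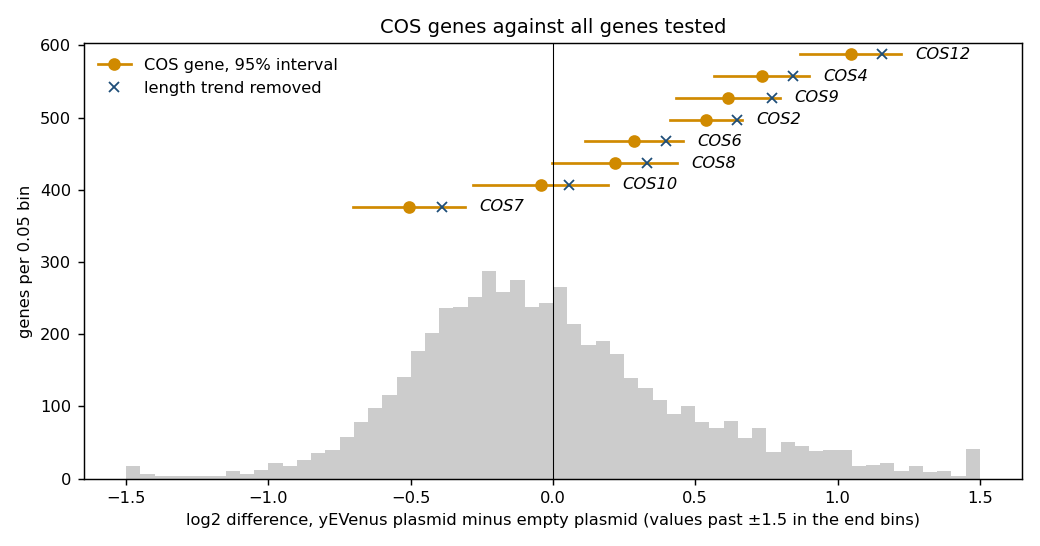
Log2 difference (yEVenus plasmid minus empty plasmid) of each COS gene with its 95% interval (circle and line) and after removal of the length trend (cross), above a histogram of the difference over all 5449 genes in bins of 0.05. COS12, COS4, COS9 and COS2 lie in the upper part of the histogram and COS7 in the lower part. The crosses lie to the right of the circles for all 8.

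Removing the dependence on coding length moved each COS gene upward by a similar step. The log2 difference became 1.16 for COS12, 0.84 for COS4, 0.77 for COS9 and 0.65 for COS2. COS6 was then at 0.40, COS8 at 0.33, COS10 at 0.06 and COS7 at -0.39. With the trend removed 6 members passed upward and 1 downward, beside 31.4% and 33.5% of all genes and 65% in either direction. The order of the members by difference was unaltered, but members so close in coding length could hardly change places by this step.

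Whether the kind of probe set bears on the differences was not tested. The 3 _s_at members held both the lowest difference, COS7, and 2 of the 4 highest, COS4 and COS2. Which COS copies each set reads is not recorded in the sources used here, so values for COS2, COS4 and COS7 may include COS1, COS3, COS5 or one another. Of all genes, 97 were read by such a set, 27.8% of which rose and 33% fell, with a median difference of 0.01.

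Spread among colonies was wider with the empty plasmid for 6 of the 8 members, as it was for 61.4% of all genes. Empty-plasmid replicate 2 was the lowest of its group for 5 of the 8 members and replicate 1 for 0. Likeness between profiles was measured as the mean absolute gap between centred log2 levels over the 6 arrays. The closest pair was COS4 and COS9 at 0.079, followed by COS6 and COS8 at 0.086, COS2 and COS9 at 0.088 and COS2 and COS4 at 0.098. The farthest were COS7 and COS12 at 0.78. Such closeness was common: 379 genes outside the family were within 0.1 of COS9, 446 of COS2 and 119 of COS12.

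The genes nearest in profile were named for COS12, COS9 and COS2, and of these 9 genes only MRPL37 lay on the chromosome of its COS gene. For COS12 they were YLR406C-A at a gap of 0.031, YOR289W at 0.031 and IES6, a subunit of the INO80 chromatin remodeller, at 0.051. For COS9 they were RRT13 at 0.024, SAY1, a sterol deacetylase, at 0.028 and SGE1, a drug exporter, at 0.029. For COS2 they were GNA1, an enzyme of chitin precursor synthesis, at 0.022, OPI3, a methyltransferase of phosphatidylcholine synthesis, at 0.022 and MRPL37, a mitochondrial ribosomal protein encoded like COS2 on the right arm of chromosome II, at 0.023. With 6 arrays and a large part of the genome differing between the groups, these gaps are a description only.

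The neighbours of the COS genes were examined next, as the 3 nearest measured genes on each side in chromosome order. Of these 32 genes 14 rose and 3 fell (43.8% and 9.38%), with a median difference of 0.18; over all genes 29.3% rose and 41% fell. With the length trend removed 13 rose and 8 fell, beside 31.4% and 33.5% of all genes. Neighbours were dim, with a median level of 5.67 against 9.13 over all genes, and without the dimmest genes (a fraction of 0.25 of all) only 5 of them were still tested and past the threshold.

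**Figure D3:**
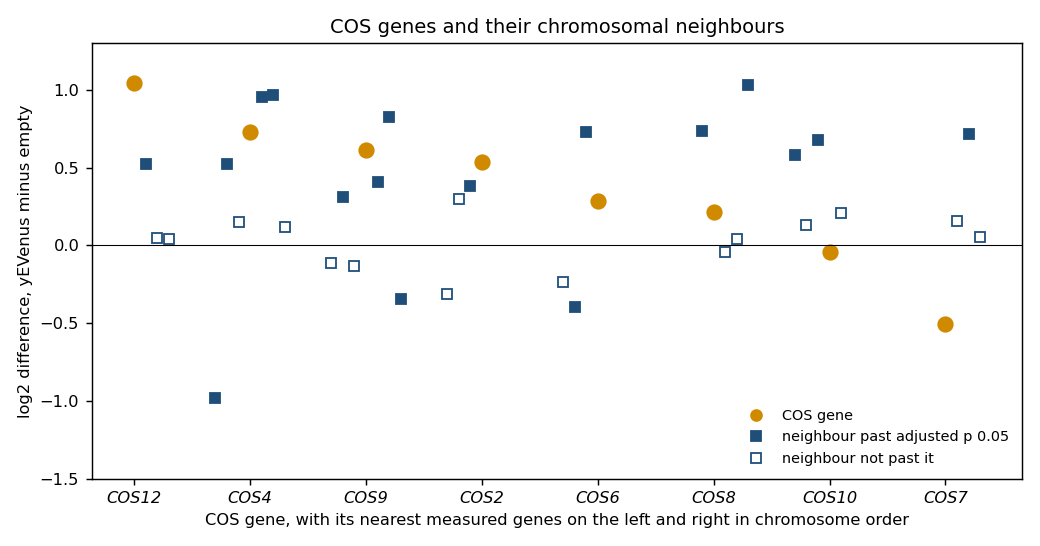
Log2 difference of each COS gene (circle) and of its nearest measured genes, up to 3 on each side in chromosome order (squares, filled where the adjusted p was under 0.05). The neighbours of COS7, COS10 and COS12 all lie above zero, and those of the other 5 members lie on both sides of it.

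Single neighbours differed in size and direction from the COS gene beside them. Next to COS12, the little-characterised YGL262W rose from 3.59 ± 0.137 to 4.11 ± 0.257 (SD, n = 3 each), a difference of 0.52 ± 0.129 (SE; limma, adjusted p = 0.00727), from levels within the range of the tag controls. Next to COS4, DDI3, a cyanamide hydratase gene, rose 1.94-fold (adjusted p = 8.7e-05 in limma), and YFL064C on the side of the telomere was at 0.15 and did not pass. DDI3 has a near-identical copy elsewhere in the genome, so its value may stand for both. COS9 lies between FRE2, a ferric reductase gene, at -0.13 (not past the threshold) and SRY1, a hydroxyaspartate dehydratase gene, which rose from 8.43 ± 0.0329 to 8.83 ± 0.0435 (SD, n = 3 each; limma, adjusted p = 2.08e-04). Beside COS2, the seripauperin gene PAU24 rose by 0.39 (limma, adjusted p = 0.0063); this short gene of 363 nt stood at -0.14 once length was accounted for.

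Beside COS6, the maltose permease gene MAL11 rose 1.66-fold (limma, adjusted p = 4.68e-04). COS7 was lower, while its nearest measured neighbour MPH2, a maltose permease gene, was at 0.16 without passing. Of the 10 measured genes besides COS7 nearest that end of chromosome IV, 4 rose and 0 fell, beside 29.3% and 41% of all genes. The same count gave 3 rises and 5 falls at the end with COS12, 2 and 5 with COS6, 4 and 4 with COS9, 5 and 2 with COS4, 4 and 0 with COS2, 3 and 4 with COS8 and 2 and 3 with COS10. COS8 lies between YHL048C-A, a small open reading frame of 135 nt that rose by 0.74 (limma, adjusted p = 2.12e-05; 0.24 with the length trend removed), and ARN2, a siderophore transporter gene, at -0.04 without passing. COS10, undetected, lies beside AIF1, a gene of mitochondrial cell death, which rose from 8.43 ± 0.0222 to 9.11 ± 0.0307 (SD, n = 3 each; limma, adjusted p = 1.63e-05). On its other side YNR075C-A was at 0.21 and did not pass.

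Genes near all chromosome ends were then counted without the COS genes. Of the 312 genes that were among the 10 measured genes nearest an end, 38.8% rose and 26.9% fell, with a median difference of 0.09. Of the 5129 genes farther in, 28.7% rose and 41.9% fell, with a median of -0.09. Without chromosomes I and II, whose genes had median differences of -0.44 and -0.32, 40.3% of the end genes rose and 26.7% fell. With the length trend removed, 126 of the 312 end genes rose and 92 fell, beside 31.4% and 33.5% of all genes. Of the 5129 others, 1581 rose and 1735 fell. The end genes were dimmer (median level 7.43 against 9.18), and the part of signal level in the counts was not tested.

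**Figure D4:**
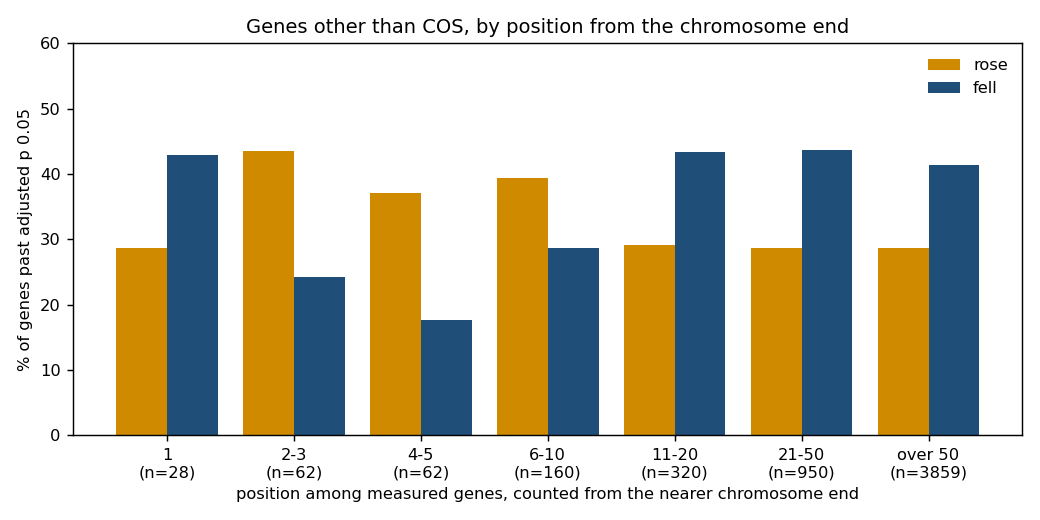
Share of genes that rose or fell (adjusted p under 0.05) by position among the measured genes counted from the nearer chromosome end, COS genes left out. Rises outnumber falls in positions 2 to 10 and falls outnumber rises at position 1 and from position 11 inward.

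The shares were also counted by position, and differences between positions were not tested. At the outermost measured position 28.6% of 28 genes rose and 42.9% fell. At positions 2 and 3 the shares were 43.5% and 24.2% of 62 genes, at 4 and 5 they were 37.1% and 17.7% of 62, and at 6 to 10 they were 39.4% and 28.7% of 160. From position 11 to 20, 29.1% rose and 43.4% fell, close to the 28.7% and 41.4% of the 3859 innermost genes. With the length trend removed, 31.4% of all genes rose and 33.5% fell. In that setting 7 rose and 16 fell at the outermost position and 21 and 19 at positions 2 and 3. At positions 4 and 5 the counts were 24 and 22, and at 6 to 10 they were 74 and 35.

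Other gene families of chromosome ends were set beside the COS genes. Of 26 seripauperin and related DAN genes, small cell wall proteins of anaerobic growth, 14 were measured, and 8 rose and 2 fell (57.1% and 14.3%, beside 29.3% and 41% of all genes), while with the length trend removed 1 rose and 9 fell, beside 31.4% and 33.5%. Their median coding length was 363 nt, and the median difference was 0.24, or -0.28 with the trend removed. Among them PAU2 had a log2 difference of 0.56 (limma, adjusted p = 0.00281), PAU23 one of 0.28 (adjusted p = 0.00296), PAU7 one of -0.48 (adjusted p = 0.00162) and PAU17 one of -0.28 (adjusted p = 0.00663). These genes are near-identical to one another, so single values are uncertain. Of 5 aryl-alcohol dehydrogenase genes measured 2 rose, AAD4 by 0.40 (limma, adjusted p = 9.6e-04) and AAD14 by 0.44 (adjusted p = 0.00101), and 0 fell; that is 40% upward beside 29.3% of all genes. Of 4 flocculin genes FLO9 rose by 0.26 (limma, adjusted p = 0.00257) and 0 fell, which is 25% upward beside 29.3% of all genes. With the length trend removed 4 passed upward, beside 31.4% of all genes. The 8 Y' helicase genes of the telomeres listed had no probe set of their own here.

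The DUP240 genes, the closest relatives of the COS family by sequence, encode membrane proteins of the secretory pathway. With the length trend removed, 0 of 5 measured rose and 3 fell, beside 31.4% and 33.5% of all genes. Without that removal 0 rose and 1 fell (20%, beside 41% of all genes), with a median of -0.07. That gene was PRM9, a pheromone-regulated gene on chromosome I, which went from 6.49 ± 0.0935 to 5.70 ± 0.166 (SD, n = 3 each), a difference of -0.79 ± 0.0906 (SE; limma, adjusted p = 1.59e-04). The other genes of chromosome I were low as well, with 63.3% of that chromosome's genes falling. UIP3 and MST28 on the same chromosome were at 0.03 and -0.15, and PRM8 and MST27 on chromosome VII at -0.07 and -0.003; none of these 4 passed, although MST28 at -0.26 and PRM8 at -0.17 did with the length trend removed.

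The machinery that Cos proteins work with was called at shares near the background. Of 21 ESCRT and MVB sorting genes 5 rose and 8 fell (23.8% and 38.1%, beside 29.3% and 41% of all genes), with a median of -0.06 beside -0.07. MVB12, a subunit of ESCRT-I, rose from 8.96 ± 0.0348 to 10.10 ± 0.0977 (SD, n = 3 each), which is 2.2-fold (limma, adjusted p = 6.75e-06); its coding length is 306 nt, and removal of the length trend took the log2 difference from 1.14 to 0.56. VPS25 of ESCRT-II rose by 0.81 (limma, adjusted p = 2.5e-05), and RFU1, an inhibitor of the deubiquitinase Doa4, by 0.45 (adjusted p = 0.0012). The falls with the smallest p were those of SNF7, the main filament protein of ESCRT-III, at -0.56 (limma, adjusted p = 3.47e-04), VPS4, the ATPase that takes ESCRT-III apart, at -0.51 (adjusted p = 1.11e-04), and DID2, which recruits Vps4, at -0.32 (adjusted p = 0.00148). For these 3 the fall held with the length trend removed, at -0.66, -0.35 and -0.51.

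The ubiquitin ligase that marks membrane proteins for this route and its adaptors were also counted. Of 20 genes 4 rose and 9 fell (20% and 45%, beside 29.3% and 41% of all genes; median -0.10), while with the length trend removed 9 rose and 4 fell (median 0.12), beside 31.4% and 33.5% of all genes; these genes are long, with a median coding length of 2430 nt. Among the falls, the adaptor genes ALY1 and ECM21 were at -0.40 and -0.52 (limma, adjusted p = 4.6e-04 for each). Among the rises, the adaptor gene CSR2 was at 0.31 (limma, adjusted p = 7.44e-04) and TRE2 at 0.19 (limma, adjusted p = 0.0115). With the length trend removed ALY1 and ECM21 were at -0.16 and -0.24, and CSR2 and TRE2 at 0.58 and 0.40. ECM21 lies on chromosome II, where the median difference was -0.32.

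**Figure D5:**
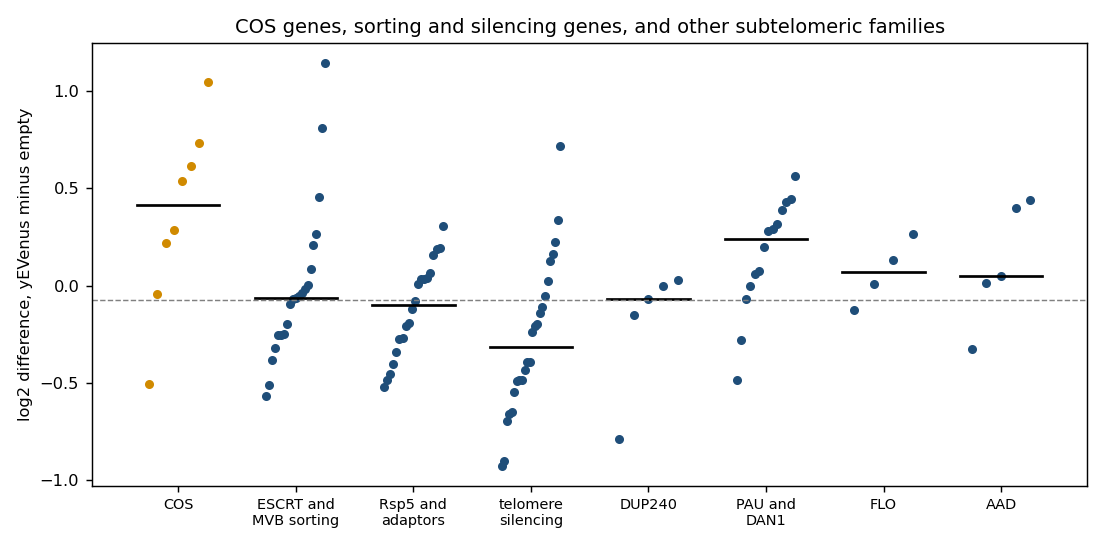
Log2 difference of each COS gene and of each measured gene of the sorting, silencing and subtelomeric lists (points, sorted within a list), with the median of each list (line) and of all genes (dashed line). The silencing list has the lowest median as drawn, at -0.31. With the length trend removed (not drawn), its median was -0.20 and that of the PAU list was lower, at -0.28. The COS genes have the highest, at 0.41, but they were chosen by these same differences, so nothing is read from that rank.

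Among genes of telomere structure and silencing, falls outnumbered rises. Of 24 genes 14 fell and 2 rose (58.3% and 8.33%, beside 41% and 29.3% of all genes), with a median of -0.31 beside -0.07. Their median coding length was 1719 nt, and with the length trend removed 14 fell and 5 rose (median -0.20), beside 33.5% and 31.4% of all genes. RIF1, a telomere protein that limits telomere length, fell from 8.75 ± 0.125 to 7.85 ± 0.0324 (SD, n = 3 each; limma, adjusted p = 2.62e-05); it lies on chromosome II, where the median was -0.32. HST3, a deacetylase of the Sir2 family, was at -0.66 (limma, adjusted p = 6.42e-05), and NPT1, an enzyme of NAD+ salvage, at -0.48 (adjusted p = 1.17e-04).

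The Sir genes themselves did not move together. SIR2 was at 0.13 and did not pass; with the length trend removed it passed at 0.26. SIR3, the spreading subunit of silent chromatin, rose from 8.81 ± 0.0587 to 9.03 ± 0.062 (SD, n = 3 each), a difference of 0.23 ± 0.0565 (SE; limma, adjusted p = 0.00781), or 0.48 with the length trend removed. SIR4, which recruits the other Sir proteins, fell by 0.48 (limma, adjusted p = 5.98e-04), and its difference was -0.18 with the length trend removed. HST4, a further Sir2 relative, was the other rise of the list, at 0.72 ± 0.0859 (SE; limma, adjusted p = 1.89e-04). PNC1, a nicotinamidase that feeds NAD+ salvage, was at -0.14 and did not pass; it passed at -0.29 with the length trend removed.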

How the data were processed

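The deposited values are RMA log2 expression levels per probe set; the submitters' processing notes name RMA and R 3.2.0, and any filter is not given in the sources used here. Per the labels' protocols, RNA was labelled with a kit that primes at the 3' end and hybridised to Affymetrix arrays. The table holds 5900 probe sets, of which 5498 name 1 gene, 0 several and 402 none in the platform annotation; 12 symbols were updated through RefSeq genes of the R64 assembly, which also gave gene order and length. For 47 genes with several probe sets the brightest was used, leaving 5449. The comparison used limma 3.58.1 under R 4.3.3 (lmFit, eBayes, 4 residual degrees of freedom, no block), with Benjamini-Hochberg adjustment over all genes; the test was tried on simulated data. With 3 arrays against 3, an exact permutation test has a smallest p of 0.1. The number of arrays limits the precision. The members, gene lists and alternatives were chosen with earlier results of these data known. Named genes were the members, their nearest measured neighbours, the 3 closest profiles of COS2, COS9 and COS12, SSE1, and from each list the genes with the smallest p in each direction; SIR2, SIR4, PNC1 and the DUP240 genes that did not pass were named after their values were seen. Length trends were removed per array by loess (span 0.5) on log2 coding length, introns included. Other alternatives were 3 scalings, other probe set rules and variance models, array weights, a replicate block, a minimum change of 1.2-fold, leaving out the dimmest genes (a fraction of 0.25) or each array, and subtraction of the chromosome's median.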

Additional observations from a re-analysis of the deposited data

How the results depend on the processing

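COS12, COS4, COS9, COS2 and COS7 kept their direction and stayed past the threshold under every alternative that tested them; COS7, COS12 and COS10 were not tested without the dimmest genes. Their log2 differences ranged over 0.97 to 1.16, 0.66 to 0.84, 0.54 to 0.77, 0.51 to 0.86 and -0.59 to -0.39. Every alternative refitted the same arrays on which the family was chosen. The steadiness of these members is therefore a description and gives no independent support. COS6 failed at a minimum change of 1.2-fold. COS8 (0.22) passed with 3 other scalings (cyclic loess, median centring, quantile), without the dimmest genes, with the length trend or chromosome median removed, with the replicate block and without empty-plasmid replicate 1, at 0.22 to 0.33. COS10 turned to 0.025 with median centring, 0.057 with the length trend removed, 0.020 without yEVenus replicate 1 and 0.018 without yEVenus replicate 3, and passed at -0.17 without yEVenus replicate 2. COS111 turned to 0.12 with the length trend removed and to 0.19, past the threshold, minus its chromosome's median; it passed at -0.17 without empty-plasmid replicate 2. The members called numbered 6, and 5 to 7 under the alternatives.

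At a minimum change of 1.2-fold, 1753 genes were called instead of 3835, 19 of the listed genes instead of 56 and 102 end genes instead of 205. Without the dimmest genes, which tests fewer genes, 5 neighbours instead of 17 and 98 end genes were called. Counting 1 or 5 neighbours a side gave 7 or 28, and 5 or 20 genes per end gave 96 or 437, over other numbers of genes. Leaving out 1 array gave 3359 to 3809 genes in all, 6 to 7 members, 17 to 20 neighbours, 185 to 208 end genes and 51 to 56 listed genes. The split of all calls, 1599 rises and 2236 falls, became 1846 and 1858 with median centring and 1787 and 1897 with cyclic loess.

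Same-numbered arrays had deviations correlated at 0.19, -0.13 and 0.20. These values give no clear sign that the numbers pair the arrays, but 3 arrays per group cannot exclude it. With the replicate block 3827 genes and 7 members were called, and 2 of 6 arrays correlated best with their own number.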
